A study of Homo sapiens with 18 samples.

Results

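MicroRNA host genes are long RNA genes whose transcripts span the hairpins of microRNAs, and their expression was described in 18 RNA-sequencing libraries of 2 human colorectal cancer lines. The members were the gene symbols that begin with MIR and end with HG. Of 60642 symbols counted, 65 had that form, and the 33 with at least 10 counts in at least 3 libraries were described. Of the other 32, 15 had no count in any library and 17 had at most 14 counts in a library. Just inside that limit lay MIR155HG and MIR181A1HG, each with 10 or more counts in 3 libraries, and MIR1302-2HG with 4 such libraries. Just outside it lay MIR9-3HG, with 14 counts in 1 library and fewer than 10 in the others.

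HT-29 iZEB1 is a colorectal line in which doxycycline (DOX) induces ZEB1, a zinc-finger repressor of epithelial genes, and SW620 is a colorectal line grown from a lymph-node metastasis. RepSox inhibits ALK5, the type I TGF-β receptor, and DMSO is its vehicle. The 6 groups, with 3 libraries each, were SW620 with 10 µM RepSox for 24 h and SW620 with DMSO, neither of which had DOX, and 4 groups of HT-29 iZEB1. These 4 had DOX (1 µg per ml) with RepSox (10 µM), DOX with DMSO, RepSox (10 µM) without DOX, and DMSO without DOX. They are called below the DOX plus RepSox, DOX, RepSox and DMSO libraries of HT-29. The protocol in the labels gives 24 h of DOX, and the design text gives 48 h. The labels name no promoter or clone for the ZEB1 construct. Nothing in them states that replicates came from separate cultures, and the p-values then reflect only how these libraries scatter, possibly for technical reasons.

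A microRNA is cut from a hairpin in its host transcript by Drosha in the nucleus and by Dicer in the cytoplasm, and the mature strand directs Argonaute to messenger RNAs that pair with its seed, bases 2 to 8. In epithelial cells the miR-200 family and miR-205 are known to repress ZEB1 and ZEB2 mRNAs, and ZEB1 is known to repress transcription of the miR-200 genes. Only the long host transcripts were counted here. Mature microRNAs were not measured, and a host level is not a level of its microRNA.

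All 33 described members had at least 1 microRNA gene in their span, 56 such genes in all, with 90 distinct mature sequences in the RefSeq table (GRCh38.p14). The first set shown belongs to the epithelial hosts MIR200CHG and MIR205HG, with each seed in capitals. Counted from 1 at the 5′ end, the seeds of miR-200c-3p and miR-141-3p differ by the single substitution U4C.
miR-200c-3p: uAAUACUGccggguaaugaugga
miR-141-3p: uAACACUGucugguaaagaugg
miR-205-5p: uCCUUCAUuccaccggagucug

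The hosts whose levels changed with DOX or RepSox carry the second set. The cluster in MIR17HG holds miR-17-5p and miR-20a-5p, which share 1 seed, and miR-19a-3p and miR-19b-3p, which share another. The miR-29 pair in MIR29B2CHG has 1 seed in common as well.
miR-17-5p: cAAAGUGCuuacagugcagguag
miR-20a-5p: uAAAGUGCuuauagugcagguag
miR-19a-3p: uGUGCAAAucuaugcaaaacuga
miR-19b-3p: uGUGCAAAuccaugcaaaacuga
miR-22-3p: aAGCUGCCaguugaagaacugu
miR-29b-3p: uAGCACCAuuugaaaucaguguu
miR-29c-3p: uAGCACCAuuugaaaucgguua
miR-34a-5p: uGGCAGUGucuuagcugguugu

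The third set shows the largest group with 1 seed, GAGGUAG of the let-7 family. It was shared by 6 mature sequences of 5 hosts, MIRLET7A1HG, MIRLET7BHG, MIR100HG, MIR4458HG and MIR4500HG.
let-7a-5p: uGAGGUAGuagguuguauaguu
let-7b-5p: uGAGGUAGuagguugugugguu
let-7d-5p: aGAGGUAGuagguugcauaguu
let-7f-5p: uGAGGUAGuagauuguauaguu
miR-4458: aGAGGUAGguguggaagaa
miR-4500: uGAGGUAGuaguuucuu

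The libraries held 36.5 to 39.8 M counts in total, and the 65 members together held 3552 to 5032 counts of a library. In DMSO the induced gene behaved as labelled, with ZEB1 at 378 ± 7.05 CPM in the DOX libraries against 8.55 ± 1.59 CPM in the DMSO libraries (SD, n = 3 each; CPM, counts per 1e6 counts, scaled by TMM). Its levels with RepSox and in SW620 are not given here. Of 10 colon epithelial markers, 8 or 9 reached 1 CPM in each HT-29 group and 7 in the SW620 groups. CDX2 stayed under 1 CPM in HT-29, and KRT20, CDH17 and LGALS4 in SW620. Of 6 fibroblast markers none reached 1 CPM in HT-29, and 2 of 6, LUM and PDGFRB, did in SW620, where the list summed to 6.66 to 7.82 CPM with RepSox and 11.5 to 12.8 CPM with DMSO. COL1A2 and COL3A1 were at 0 there. Of 6 leukocyte markers 1, CD14, reached 1 CPM in each HT-29 group and none in SW620, and of 5 endothelial markers 1, PECAM1, did in SW620.

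Differences were tested with edgeR's quasi-likelihood test, and p-values were adjusted by the Benjamini-Hochberg method over all genes tested. A gene was called at an adjusted p below 0.05, and SE is the standard error of a log2 fold change. In HT-29, 26 of the 33 described members passed the filter on low counts. DOX over no DOX in DMSO called 8 of these 26, with 7 lower and 1 higher. In that comparison 40.4% of all 16978 genes were called, 21.1% lower and 19.2% higher. RepSox over DMSO in DOX-treated cells called 13, with 7 higher and 6 lower, where 52.2% of all genes were called, 26.8% higher and 25.5% lower. RepSox over DMSO without DOX called 7, with 1 higher and 6 lower, where 25.3% of all genes were called, 12.5% higher and 12.8% lower. The members' share was thus near or under that of all genes in these comparisons. Some members, such as MIR1915HG and MIR155HG, passed the filter only through the groups in which they were high, so the counts describe the members and support nothing about them. With scaling by library totals alone, 59.5% of all genes called with DOX in DMSO were higher, against 47.6% with TMM.

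**Figure D1:**
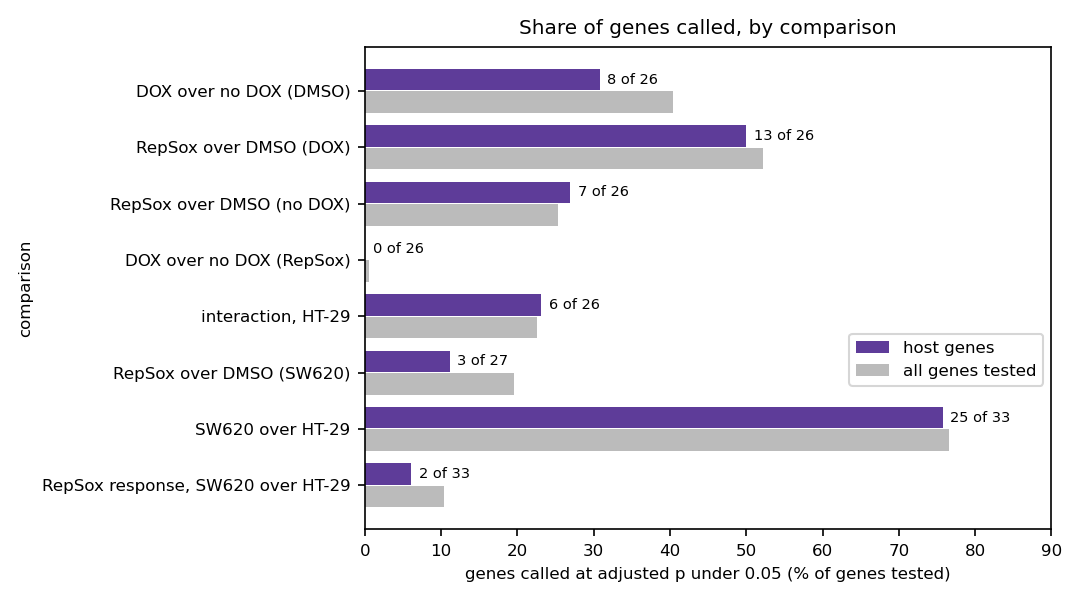
Bars give the percentage of genes called at an adjusted p below 0.05 in each of 8 comparisons, for the microRNA host genes tested (purple, with counts) above all genes tested (grey). The bar of host genes lies near or below the grey bar throughout, from 0 of 26 for DOX over no DOX in RepSox to 25 of 33 for SW620 over HT-29.

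The hosts of the epithelial microRNAs, MIR200CHG and MIR205HG, fell with DOX and rose when RepSox was added to DOX. MIR200CHG lies on chromosome 12 from 6963246 to 6964447 (plus strand, GENCODE 29 on GRCh38), with the miR-200c and miR-141 hairpins in its intron. It had 7, 2 and 3 counts in the DOX libraries against 28, 56 and 35 in the DMSO libraries, with no overlap. The log2 fold change was -3.43 (SE 0.50, edgeR adjusted p = 1.66e-05). In the DOX plus RepSox libraries it had 10, 29 and 27 counts, again above all DOX libraries, for a log2 fold change of 2.53 (SE 0.53, edgeR adjusted p = 0.000519). RepSox without DOX gave 31, 40 and 29 counts, within the range of the DMSO libraries (log2 fold change -0.27, SE 0.36, edgeR adjusted p = 0.645). In bulk libraries, fewer cells that express a gene and less of its RNA per cell cannot be told apart. As a sum, the 10 colon epithelial markers were at 4772 to 5266 CPM in the DOX libraries against 9190 to 10385 CPM in the DMSO libraries. The sum was 10460 to 11350 CPM with DOX plus RepSox, and the host was at 0.600 ± 0.276 CPM there against 1.12 ± 0.412 CPM with DMSO. In SW620 with DMSO the sum was 6242 to 6679 CPM, and the host had 0, 1 and 0 counts. Changes of single markers are not given, and the part of these markers in the result was not tested.

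MIR205HG, on chromosome 1 from 209428820 to 209432838 (plus strand), hosts miR-205, a microRNA of stratified and glandular epithelia. It had 22, 23 and 35 counts in the DOX libraries against 53, 91 and 87 in the DMSO libraries, a log2 fold change of -1.69 (SE 0.25, edgeR adjusted p = 2.07e-05). RepSox raised it in both DOX states. With DOX and RepSox it had 175, 214 and 246 counts (log2 fold change 3.10 over DOX, SE 0.23, edgeR adjusted p = 1.78e-09), and with RepSox alone 175, 202 and 243 counts (log2 fold change 1.40 over DMSO, SE 0.19, edgeR adjusted p = 3.47e-05). Both RepSox groups lay above all DMSO libraries, at 5.80 ± 0.871 CPM with DOX plus RepSox, 5.78 ± 0.838 CPM with RepSox and 2.17 ± 0.586 CPM with DMSO. In this it differed from MIR200CHG, which RepSox alone left at 0.937 ± 0.189 CPM, against 1.12 ± 0.412 CPM with DMSO. The miR-205 hairpin lies partly in an annotated exon, and its own row held 10 counts over the 18 libraries.

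**Figure D2:**
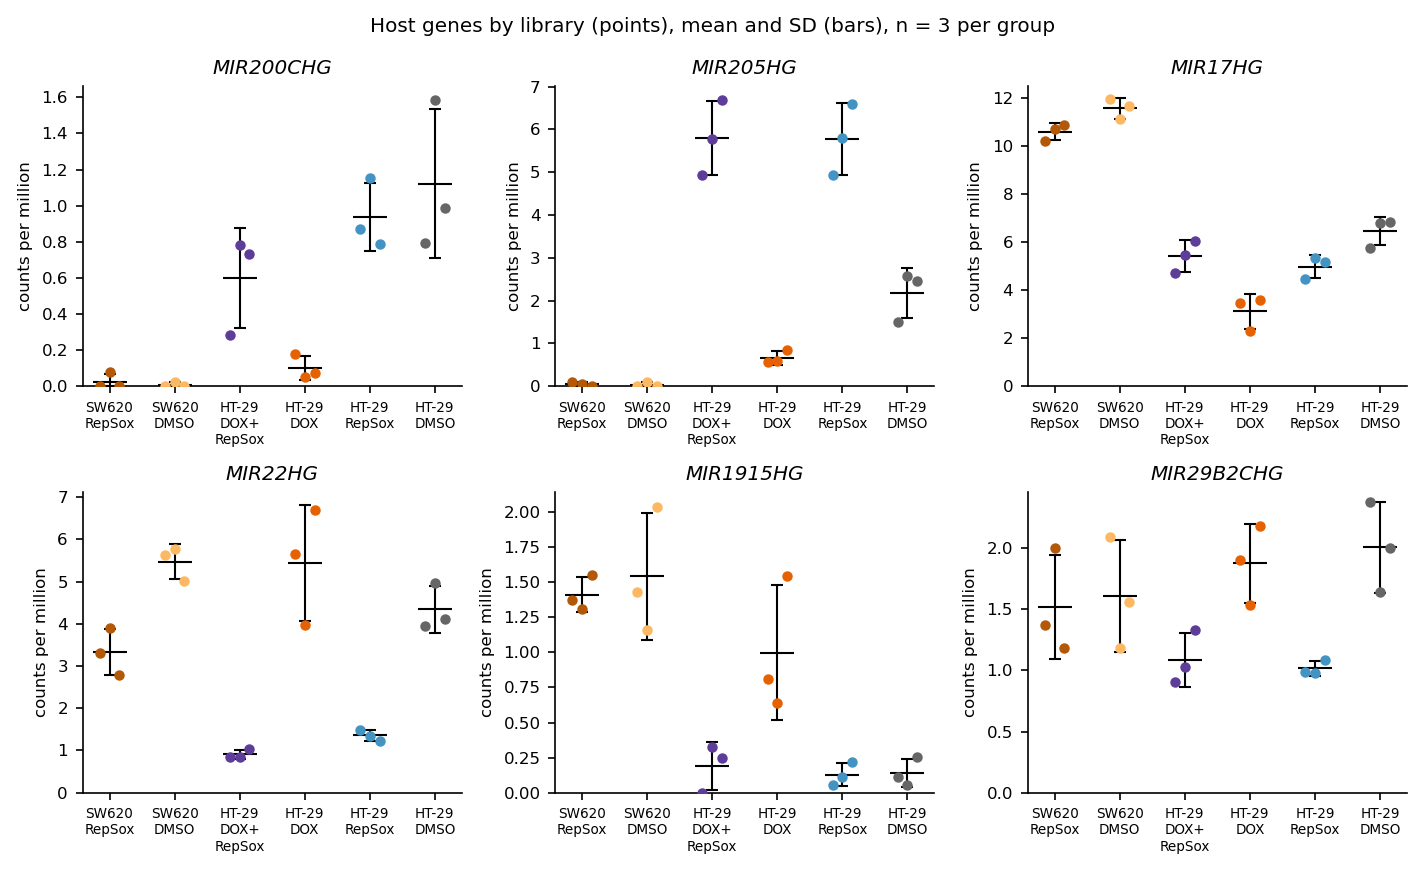
TMM-scaled CPM of 6 host genes (vertical axes, from 0) in the 6 groups, with 1 point per library and bars for the mean and SD of 3 libraries. MIR200CHG, MIR205HG and MIR17HG were lowest in HT-29 with DOX among the 4 HT-29 groups, MIR22HG and MIR29B2CHG were low in both HT-29 groups with RepSox, and MIR1915HG was high in HT-29 with DOX and in SW620.

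The promoter of MIR200CHG is shown because ZEB1 is known to bind E-boxes with the letters CACCTG, or CAGGTG on the other strand, and because this host had the largest fall among members called with DOX. The RefSeq window runs from 250 bases before the start to 50 after it and holds the motif once, 78 bases before the start, in capitals (GRCh38.p14, chr12:6962995-6963294, plus strand).
MIR200CHG promoter: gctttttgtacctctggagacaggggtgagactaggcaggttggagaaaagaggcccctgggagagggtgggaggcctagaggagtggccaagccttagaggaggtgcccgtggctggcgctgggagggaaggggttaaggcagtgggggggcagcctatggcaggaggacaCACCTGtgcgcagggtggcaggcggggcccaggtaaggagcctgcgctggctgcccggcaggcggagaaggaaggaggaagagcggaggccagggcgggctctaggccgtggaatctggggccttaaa
Of 30 described members with a RefSeq promoter, 8 held the motif on either strand, or 26.7%, against 20.6% of 27305 promoters of the same length. Among the 7 members lower with DOX, MIR200CHG was the 1 with the motif. MIR34AHG held it at 2 positions, and MIR29B2CHG, MIR4458HG, MIR31HG, MIR210HG, MIR193BHG and MIR503HG once each. None of these 7 was called with DOX, and MIR503HG was not tested in HT-29. The window of MIR205HG held neither CACCTG nor CAGGTG, and other forms of the E-box were not searched in any window. These shares depend on the RefSeq start, and GENCODE 29 places some gene starts outside the window. For MIR34AHG (minus strand) the window is 9182289 to 9182588, and the GENCODE 29 gene starts at 9198906. A match is a description of these letters and was not tested as a binding site.

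MIR17HG, MIR222HG and MIR503HG host microRNAs known for roles in the cell cycle. MIR17HG carries the miR-17/92 cluster, which MYC and E2F factors are known to activate, on chromosome 13 from 91347820 to 91354579 (plus strand). It had 137, 89 and 147 counts in the DOX libraries against 204, 240 and 243 in the DMSO libraries (log2 fold change -1.04, SE 0.16, edgeR adjusted p = 3.37e-05). The DOX plus RepSox libraries had 167, 203 and 223 counts, all above the DOX libraries (log2 fold change 0.78, SE 0.16, edgeR adjusted p = 0.000447). RepSox without DOX gave 158, 186 and 190 counts, all below the DMSO libraries, without a call (log2 fold change -0.38, SE 0.15, edgeR adjusted p = 0.0777), although a fit of all 18 libraries called it (edgeR adjusted p = 0.0415). E2F1, a cell-cycle transcription factor, was at 46.4 ± 4.38 CPM in the DOX libraries against 90.8 ± 12.1 CPM in the DMSO libraries, and its other levels are not given here. MYC was at 123 ± 10.6 CPM with DOX against 208 ± 4.86 CPM with DMSO, and at 375 ± 2.03 CPM with DOX plus RepSox. Their part in the result was not tested.

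MIR222HG hosts miR-221 and miR-222, known repressors of the cell-cycle inhibitor CDKN1B. It had 359, 263 and 450 counts with DOX against 413, 460 and 497 with DMSO, so that the ranges overlapped as counts but not as CPM (8.96 ± 2.14 against 12.9 ± 1.15). The log2 fold change was -0.52 (SE 0.15, edgeR adjusted p = 0.00832). For RepSox its log2 fold changes were 0.25 with DOX and -0.24 without it, neither called. Leaving out DOX replicate 3 called the change with DOX (0.42, edgeR adjusted p = 0.0284) and the difference between these responses (0.66, edgeR adjusted p = 0.0256, against 0.106 with all 12 libraries), and the difference was also called with no filter (0.48, edgeR adjusted p = 0.0243). MIR503HG, host of miR-503, had at most 8 counts in any HT-29 library and was not tested there.

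MIR22HG, whose exon holds miR-22, was lower with RepSox in both DOX states and in SW620. It lies on chromosome 17 from 1711493 to 1717174 (minus strand) and is known to respond to cell stress. It had 30, 31 and 38 counts with DOX plus RepSox against 223, 155 and 273 with DOX (log2 fold change -2.59, SE 0.21, edgeR adjusted p = 5.94e-09). Without DOX it had 53, 47 and 45 counts with RepSox against 139, 176 and 146 with DMSO (log2 fold change -1.68, SE 0.20, edgeR adjusted p = 6.59e-06). The groups did not overlap in either pair. In DMSO the DOX libraries overlapped the controls, with a log2 fold change of 0.33 (SE 0.17, edgeR adjusted p = 0.137), called without DOX replicate 2 (0.51, edgeR adjusted p = 0.0135). WDR81 overlaps the host on the opposite strand and had log2 fold changes for RepSox of -0.40 with DOX (edgeR adjusted p = 0.000994) and -0.01 without it. For DOX over no DOX in DMSO, WDR81 had a log2 fold change of 0.33 (edgeR adjusted p = 0.00627).

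MIR29B2CHG, which hosts miR-29b and miR-29c, known repressors of collagen mRNAs, was also lower with RepSox in both DOX states. It had 32, 38 and 49 counts with DOX plus RepSox against 75, 60 and 89 with DOX (log2 fold change -0.79, SE 0.22, edgeR adjusted p = 0.00546). Without DOX it had 35, 34 and 40 counts with RepSox against 84, 58 and 71 with DMSO (log2 fold change -0.98, SE 0.22, edgeR adjusted p = 0.00324). Each RepSox library was thus below each library it was compared with.

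MIR34AHG hosts miR-34a, a microRNA known for roles in growth arrest, and had the smallest fall of the 3 members called lower with RepSox in both states. It was at 4.10 ± 0.868 CPM with DOX plus RepSox against 5.84 ± 0.751 CPM with DOX (log2 fold change -0.52, edgeR adjusted p = 0.00839). Without DOX it was at 3.85 ± 0.483 CPM with RepSox against 5.33 ± 0.267 CPM with DMSO (log2 fold change -0.48, edgeR adjusted p = 0.0316). The call with DOX was lost without DOX replicate 3 (-0.41). The call without DOX held only when RepSox replicate 2 was left out, and was lost without each other library (-0.41 to -0.50). LNCTAM34A, which overlaps it on the opposite strand, had 11, 12 and 17 counts with DOX plus RepSox against 27, 36 and 41 with DOX (log2 fold change -1.25, edgeR adjusted p = 0.00509). Reads of this pair cannot be told apart where exons overlap, which was not examined.

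MIR194-2HG hosts miR-192 and miR-194, which are abundant in intestinal and hepatic epithelium. It had 65, 81 and 75 counts with RepSox against 124, 122 and 119 with DMSO, without overlap (log2 fold change -0.74, SE 0.19, edgeR adjusted p = 0.00648). With DOX, RepSox gave 89, 60 and 97 counts against 133, 99 and 125 with DOX alone, which did not pass (log2 fold change -0.42, SE 0.18, edgeR adjusted p = 0.0654). Scaling by library totals alone called that difference (-0.48), as did leaving out DOX replicate 2 (-0.52) or DOX plus RepSox replicate 3 (-0.56).

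Some calls with RepSox in HT-29 were below 1.5-fold. MIR4453HG was at 4.12 ± 0.789 CPM with RepSox against 5.79 ± 0.204 CPM with DMSO (log2 fold change -0.50, edgeR adjusted p = 0.0132), and the call was lost without RepSox replicate 1 (-0.35). MIR210HG, host of the hypoxia-induced miR-210, was at 2.89 ± 0.408 CPM with DOX plus RepSox against 4.09 ± 0.02 CPM with DOX (log2 fold change -0.51, edgeR adjusted p = 0.0327). That call held only without DOX plus RepSox replicate 2 and was lost without each other library (-0.41 to -0.53) and in the fit of all 18 libraries (-0.50). MIR31HG, host of miR-31, was at 17.2 ± 1.76 CPM with DOX plus RepSox against 20.6 ± 1.06 CPM with DOX (log2 fold change -0.28, edgeR adjusted p = 0.0185). It was lost in the fit of all 18 libraries (-0.27), without DOX replicate 3 (-0.24), and without DOX plus RepSox replicate 2 (-0.26) or 3 (-0.22). MIR924HG was at 3.10 ± 0.498 CPM with DOX plus RepSox against 2.25 ± 0.389 CPM with DOX (log2 fold change 0.45, edgeR adjusted p = 0.0305). It was lost with DESeq2 (0.46), library totals alone (0.39) or no filter (0.46), without DOX replicate 3 (0.32), and without DOX plus RepSox replicate 1 (0.35) or 2 (0.43). The CPM values of MIR924HG overlapped between these groups. RPL7AP66, a pseudogene in the span of MIR924HG, had 150 summed counts with DOX plus RepSox against 73 with DOX (log2 fold change 1.14, edgeR adjusted p = 0.00329).

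**Figure D3:**
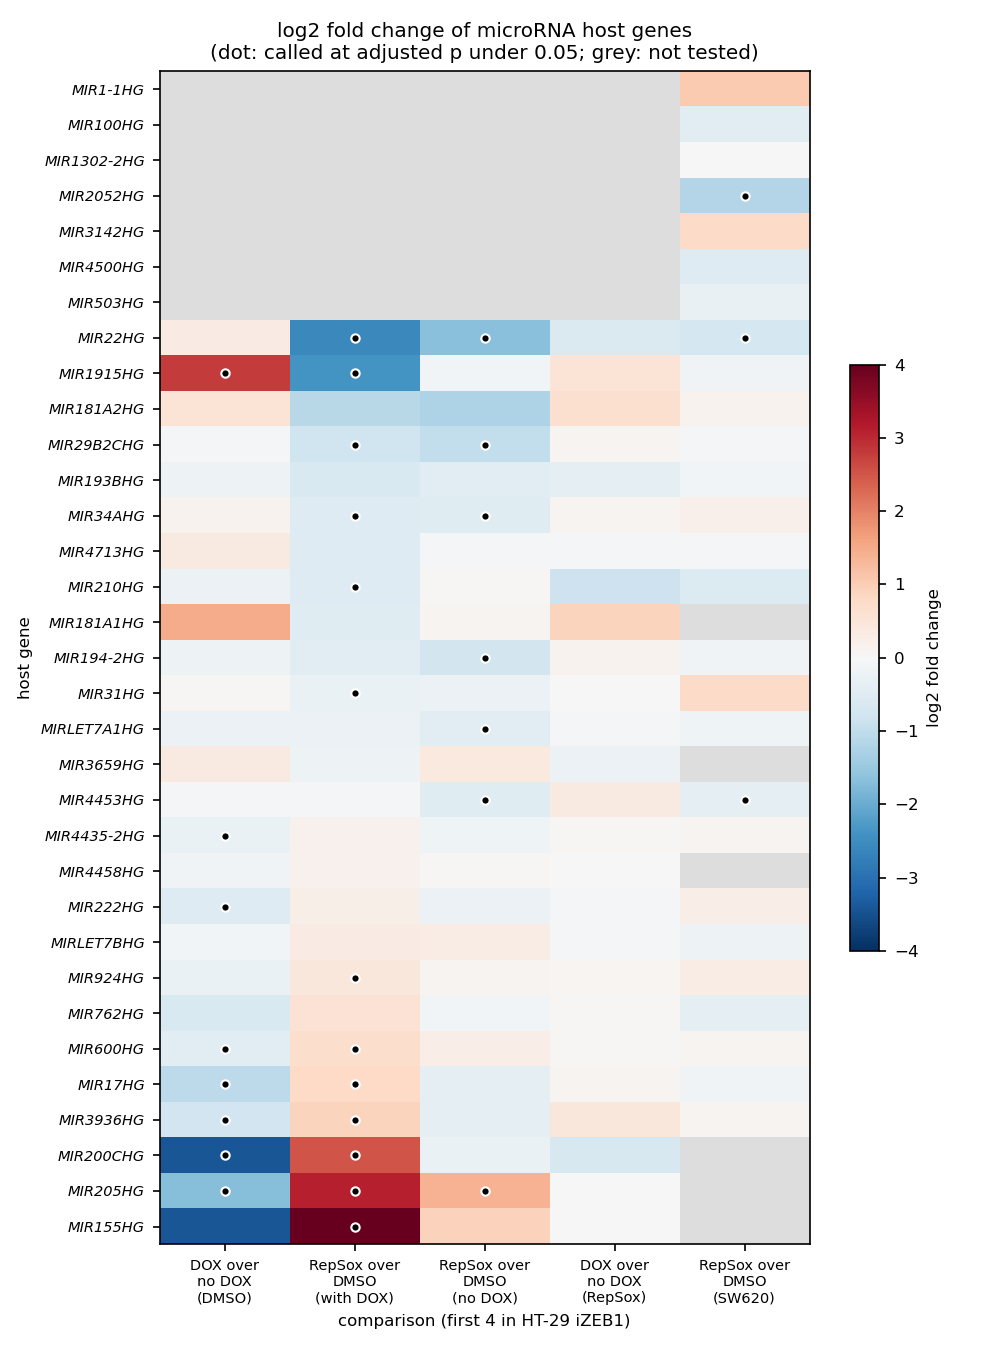
Colour gives the log2 fold change of each described host gene (rows, ordered by the response to RepSox with DOX) in 5 treatment comparisons, with dots for calls and grey for genes that were not tested. The first 2 columns share the DOX libraries, which enter them with opposite sign, so the colours of these columns are not independent. The scale ends at 4 in either direction, and MIR155HG lies past its upper end in the second column, at 4.35.

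MIR1915HG and MIR155HG had few counts in most HT-29 groups and large fold changes. Both passed the filter on low counts only through groups in which they were high, so a difference in them was partly built into the choice. MIR1915HG had 32, 25 and 63 counts in the DOX libraries against 4, 2 and 9 in the DMSO libraries (log2 fold change 2.80, SE 0.63, edgeR adjusted p = 0.00142), the 1 member called higher with DOX. With DOX plus RepSox it had 0, 12 and 9 counts, below every DOX library (log2 fold change -2.38, SE 0.60, edgeR adjusted p = 0.00239), and with RepSox alone 2, 4 and 8. MIR155HG, host of the immune-cell microRNA miR-155, had 8, 12 and 6 counts with DOX plus RepSox against 1, 0 and 0 with DOX. The ratio of the summed counts was 28.4 (exact interval 4.66 to 1163 at 95%, for counting error only; edgeR adjusted p = 0.00681). The other HT-29 groups had 2, 15 and 8 counts with RepSox and 2, 0 and 11 with DMSO, so the DMSO libraries spanned most of the range. DOX over no DOX was not called for it (edgeR adjusted p = 0.0630), but was with DESeq2 (log2 fold change -3.76), with no filter (-3.42), and without DMSO replicate 2 (-3.99).

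MIR3936HG and MIR600HG share their loci with protein-coding genes that moved the same way, as did genes at the MIR4435-2HG locus with DOX. MIR3936HG, on chromosome 5 from 132311285 to 132369916 (minus strand), had 38, 24 and 25 counts with DOX against 47, 37 and 50 with DMSO. The log2 fold change was -0.78 (SE 0.26, edgeR adjusted p = 0.0196), and the call was lost without DMSO replicate 1 (-0.74) or 3 (-0.70) and without DOX replicate 2 or 3 (-0.67 each). With DOX plus RepSox it had 56, 48 and 46 counts, above the DOX libraries (log2 fold change 0.90, SE 0.25, edgeR adjusted p = 0.00576). SLC22A5, a carnitine transporter on the opposite strand, was at 11.0 ± 0.848 CPM with DOX against 17.2 ± 0.714 CPM with DMSO and at 17.9 ± 1.03 CPM with DOX plus RepSox. Its log2 fold changes were -0.64 with DOX and 0.70 with RepSox added.

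MIR600HG, within STRBP and on its strand, was at 5.66 ± 0.320 CPM with DOX against 7.56 ± 0.589 CPM with DMSO (log2 fold change -0.41, SE 0.10, edgeR adjusted p = 0.00337). With DOX plus RepSox it had 318, 373 and 326 counts against 223, 208 and 244 with DOX (log2 fold change 0.71, SE 0.10, edgeR adjusted p = 1.05e-05). STRBP, which encodes an RNA-binding protein, changed by -0.37 with DOX and by 0.62 with RepSox added, and was at 78.9 ± 5.35 CPM with DOX against 103 ± 3.04 CPM with DMSO. Overlaps were taken from whole gene spans, and overlap of exons was not examined. GENCODE 29 types MIR600HG as sense intronic. Where exons of MIR600HG and STRBP overlap, no strand setting of the counting could tell their reads apart, since both lie on 1 strand. No source used here gives that setting, so reads from exons that overlap on opposite strands cannot be told apart either. By span, 19 of the 33 described members overlapped another annotated gene.

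DOX over no DOX in the presence of RepSox called none of the 26 members, where 0.477% of all genes were called, 0.0942% higher and 0.383% lower. At an unadjusted p below 0.05 (edgeR's quasi-likelihood test) there were 3 of the 26 members, MIR210HG, MIR4453HG and MIR22HG, and 2388 of all 16978 genes. MIR210HG had 87, 121 and 108 counts with DOX plus RepSox against 161, 155 and 230 with RepSox, without overlap (log2 fold change -0.81, SE 0.19, edgeR adjusted p = 0.0701). It was called with DESeq2 (-0.82), with no filter (-0.82) and without DOX plus RepSox replicate 1 (-0.71). That replicate also decided the count of all genes, 81 with it and 1670 without it. The log2 fold changes of MIR200CHG (-0.63, SE 0.38, edgeR adjusted p = 0.458), MIR205HG (0.01, SE 0.18) and MIR17HG (0.12, SE 0.16) did not pass.

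The interaction term asks whether the response to RepSox differed with DOX. It was called for 6 members, 5 higher and 1 lower, where 22.6% of all genes were called, 13% higher and 9.61% lower. With library totals alone, 47.0% of all genes called were higher, against 57.4% with TMM. The difference in log2 fold change was 2.80 (SE 0.65) for MIR200CHG, 1.70 (SE 0.31) for MIR205HG, 1.17 (SE 0.22) for MIR17HG and 1.24 (SE 0.35) for MIR3936HG. These 4 calls held without each of the 12 libraries in turn (edgeR adjusted p of 0.00369, 0.000447, 0.000791 and 0.0156 with all 12). MIR600HG had a difference of 0.45 (SE 0.14, edgeR adjusted p = 0.0293), which was lost with library totals alone (0.39), with no filter (0.45), and without DMSO replicate 1 (0.38), RepSox replicate 2 (0.44) or 3 (0.43), DOX replicate 2 (0.41) or DOX plus RepSox replicate 2 (0.39). MIR22HG, the 1 member with a lower term, had -0.91 (SE 0.29, edgeR adjusted p = 0.0313). It was lost without any of 8 of the 12 libraries (-0.73 to -0.91) and held without replicate 2 of the DMSO and DOX groups or replicate 3 of the RepSox and DOX plus RepSox groups. Genes in the spans of MIR3936HG, MIR600HG and MIR22HG had the term called in the direction of the host. These were SLC22A5 (0.61, edgeR adjusted p = 0.00087), STRBP (0.47, edgeR adjusted p = 0.00128) and WDR81 (-0.38, edgeR adjusted p = 0.0347).

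Hosts of the let-7 seed did not move together. MIR4458HG, on chromosome 5 from 8450743 to 8463095 (plus strand), had 341 to 429 counts in each of the 12 HT-29 libraries, and no comparison within HT-29 called it. MIRLET7BHG was also not called within HT-29, with log2 fold changes between -0.12 and 0.32. MIRLET7A1HG, host of let-7a, let-7d and let-7f, had 135, 182 and 195 counts with RepSox against 233, 210 and 242 with DMSO (log2 fold change -0.44, SE 0.16, edgeR adjusted p = 0.0498). That call was lost without each of the 6 libraries (-0.30 to -0.52), with RLE size factors (-0.44) and in the fit of all 18 libraries (-0.43). MIR100HG and MIR4500HG had 0 to 2 counts in HT-29 libraries and were not tested there.

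**Figure D4:**
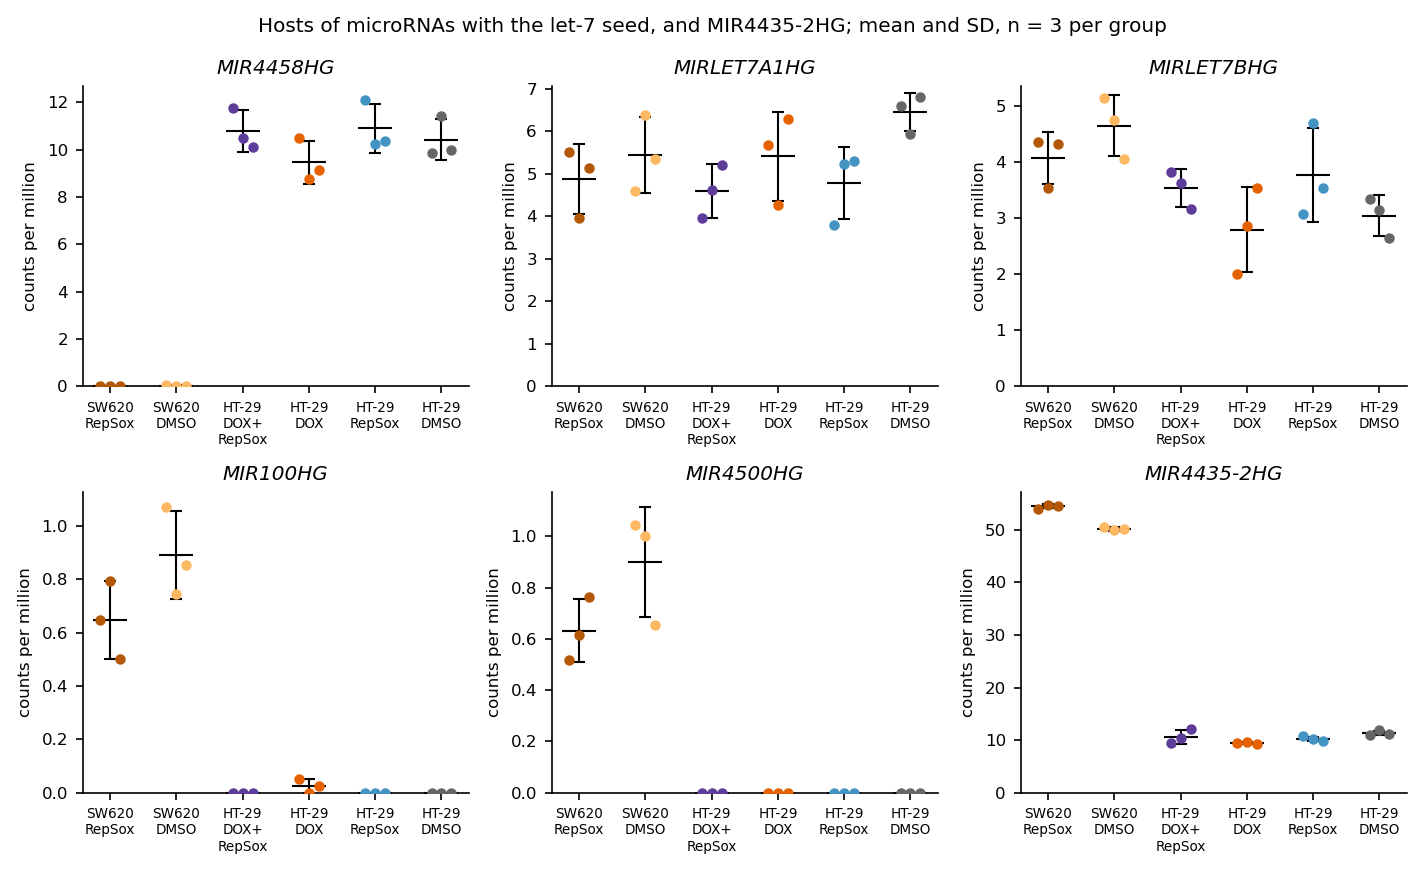
TMM-scaled CPM of the 5 hosts of the let-7 seed and of MIR4435-2HG (vertical axes, from 0) in the 6 groups, with 1 point per library and bars for the mean and SD of 3 libraries. MIR4458HG was near 10 CPM in HT-29 and at or near 0 in SW620, while MIR100HG and MIR4500HG had counts almost only in SW620.

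MIR4435-2HG, a widely expressed long RNA gene, was at 9.44 ± 0.245 CPM with DOX against 11.4 ± 0.430 CPM with DMSO (log2 fold change -0.27, edgeR adjusted p = 0.0364). The call held when DOX replicate 2 was left out. It was lost without each other library (-0.24 to -0.28), with library totals alone (-0.19) and with no filter (-0.27). Its transcripts share 2985 stretches of 50 bases with those of CYTOR, 21.6% of its own stretches and 16% of those of CYTOR, so the division of reads between these genes is uncertain. BCL2L11, a gene of apoptosis, and ACOXL lie on the opposite strand within its span and were also lower with DOX, at 16.3 ± 0.640 CPM with DOX against 19.6 ± 1.72 CPM with DMSO (log2 fold change -0.26, edgeR adjusted p = 0.0181) and at 2.05 ± 0.335 CPM with DOX against 4.67 ± 0.374 CPM with DMSO (-1.18, edgeR adjusted p = 2.91e-06).

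Within HT-29, 8 of the 26 tested members were called in none of the 4 comparisons between groups. The same count over all genes was not made, so the number says nothing about the members as a set. These 8 were MIR181A1HG, MIR181A2HG, MIR193BHG, MIR3659HG, MIR4458HG, MIR4713HG, MIR762HG and MIRLET7BHG. MIR181A1HG came nearest, with 8, 15 and 12 counts with DOX against 6, 2 and 3 with DMSO (log2 fold change 1.48, SE 0.60, edgeR adjusted p = 0.0512). It passed in the fit of all 18 libraries (1.47), with library totals alone (1.55), and without replicate 1 of DMSO (2.01) or DOX (1.68). MIR193BHG passed with RepSox in DOX-treated cells without DOX replicate 2 (-0.79) or 3 (-0.83), MIR4713HG with DOX without DMSO replicate 1 (0.71), and MIRLET7BHG with RepSox in DOX-treated cells without DOX replicate 3 (0.53).

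RepSox over DMSO in SW620 called 3 of 27 members, all lower, where 19.5% of all 17147 genes were called, 10.2% higher and 9.24% lower. With library totals alone, 39.5% of all genes called there were higher, against 52.5% with TMM. MIR22HG had 128, 152 and 106 counts with RepSox against 221, 225 and 199 with DMSO, without overlap (log2 fold change -0.71, SE 0.14, edgeR adjusted p = 0.000428). MIR2052HG had 22, 16 and 11 counts against 33, 35 and 46 (log2 fold change -1.18, SE 0.32, edgeR adjusted p = 0.00997), and was lost without RepSox replicate 3 (-0.97) and in the fit of all 18 libraries (-1.18). MIR4453HG was at 5.39 ± 0.232 CPM with RepSox against 6.89 ± 0.502 CPM with DMSO (log2 fold change -0.36, edgeR adjusted p = 0.0229). It was lost with DESeq2 (-0.35), in the fit of all 18 libraries (-0.35), without DMSO replicate 1 (-0.31), and without RepSox replicate 1 (-0.33) or 3 (-0.35).

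The epithelial hosts were nearly silent in SW620. MIR200CHG had 0, 3 and 0 counts with RepSox and 0, 1 and 0 with DMSO, MIR205HG had 4, 2 and 0 with RepSox and 0, 4 and 0 with DMSO, and neither was tested there. MIR17HG had 395, 418 and 414 counts with RepSox against 470, 433 and 464 with DMSO (log2 fold change -0.13, SE 0.08, edgeR adjusted p = 0.328). MIR1-1HG, host of a muscle microRNA, had 23, 16 and 28 counts with RepSox against 6, 15 and 12 with DMSO, which did not pass (log2 fold change 1.04, SE 0.40, edgeR adjusted p = 0.0687). MIR1-1HG-AS1, which overlaps MIR1-1HG on the opposite strand, was at 17.1 ± 0.753 CPM with RepSox against 5.66 ± 0.286 CPM with DMSO (log2 fold change 1.60, SE 0.09, edgeR adjusted p = 2.02e-12).

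MIR3142HG, MIR31HG and MIR503HG missed the threshold with RepSox in SW620 (edgeR adjusted p of 0.0516, 0.0775 and 0.0520). MIR3142HG passed with no filter (0.78), and without DMSO replicate 1 (0.91) or 2 (0.97). MIR31HG passed with no filter (0.76), without DMSO replicate 1 (1.12) and without RepSox replicate 3 (1.02). MIR503HG passed with library totals alone (-0.34).

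The response to RepSox differed between SW620 and HT-29 without DOX for 2 of 33 members, both higher, where 10.4% of all 19107 genes were called, 5.39% higher and 4.99% lower. The difference for MIR22HG was 0.96 (SE 0.26, edgeR adjusted p = 0.0145), the fall being smaller in SW620. It was lost without HT-29 RepSox replicate 3 (0.89) or SW620 RepSox replicate 2 (0.84). For MIR31HG it was 0.98 (SE 0.28, edgeR adjusted p = 0.0258), with log2 fold changes of 0.76 in SW620 and -0.23 in HT-29, neither called. It was lost without HT-29 RepSox replicate 3 (0.90), without SW620 DMSO replicate 2 (0.77) or 3 (0.90), and without SW620 RepSox replicate 1 (0.77) or 2 (0.90).

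SW620 over HT-29, both in DMSO, separated the members most, with 25 of 33 called, 13 higher and 12 lower. Of all 19107 genes 76.6% were called, 40.1% higher and 36.5% lower, so this share lies at the background. Line and any difference in culture or library preparation cannot be told apart. Library totals alone shifted the median log2 fold change of all genes from 0.06 to 0.18, and the members' values are given relative to TMM. Members present in 1 line only passed the filter through that line, so a difference in them was built into the choice.

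Among hosts lower in SW620, MIR4458HG had 2, 0 and 0 counts in SW620 against 348, 404 and 354 in HT-29. The ratio of summed counts was 614 in favour of HT-29 (exact interval 170 to 5075, counting error only; edgeR adjusted p = 6.21e-18). For MIR200CHG, with 1 against 119 summed counts, the ratio was 132 (23.3 to 5261), and for MIR3659HG, with 2 against 61, it was 33.9 (8.98 to 286). MIR205HG had 0, 4 and 0 counts in SW620 against 53, 91 and 87 in HT-29 (log2 fold change -5.87, SE 0.52, edgeR adjusted p = 1.08e-10). MIR31HG had 47, 22 and 29 counts in SW620 against 740, 700 and 696 in HT-29 (log2 fold change -4.59, SE 0.18, edgeR adjusted p = 2.01e-17). IFNE, an interferon gene on its strand, was lower as well (log2 fold change -4.13, edgeR adjusted p = 1.33e-09).

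Smaller differences of the same direction were called for MIR34AHG (log2 fold change -2.19), MIR210HG (-2.01), MIR193BHG (-1.96), MIR600HG (-1.06), MIR4713HG (-1.06) and MIR222HG (-0.81). MIR155HG, with 1 against 13 summed counts and a ratio of 14.4 (2.17 to 613), overlapped between the lines. Its call (edgeR adjusted p = 0.0288) was lost without HT-29 DMSO replicate 3 (-1.44) and without SW620 DMSO replicate 1 (-3.00) or 3 (-2.99).

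Among hosts higher in SW620, MIR503HG, on chromosome X from 134543337 to 134546632 (minus strand), had 250, 261 and 291 counts in SW620 against 4, 3 and 2 in HT-29 (log2 fold change 6.27, SE 0.32, edgeR adjusted p = 2.84e-15). MIR4435-2HG had 1985, 1944 and 1994 counts in SW620 against 391, 420 and 398 in HT-29 (log2 fold change 2.14, SE 0.08, edgeR adjusted p = 1.82e-18). MIR1915HG had 56, 45 and 81 counts in SW620 against 4, 2 and 9 in HT-29 (log2 fold change 3.42, SE 0.53, edgeR adjusted p = 2.36e-06). The groups of each of these 3 hosts lay far apart.

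A further 5 hosts were at 0 in all HT-29 DMSO libraries, and their folds are lower bounds against a floor of 3 counts over the group. MIR2052HG was at least 34.2-fold higher in SW620, MIR4500HG 31.8-fold, MIR100HG 31.5-fold, MIR3142HG 26.7-fold and MIR1-1HG 9.91-fold. On the opposite strand, AC011632.1 in the span of MIR2052HG had 306 summed counts in SW620 against 0 in HT-29. AC115837.1 in that span had 236 against 147. MIR1-1HG-AS1, which overlaps MIR1-1HG, had 667 against 0. Reads of such pairs cannot be told apart where exons overlap, which was not examined. MIR1302-2HG, with 26 against 2 summed counts, had a ratio of 11.7 (2.93 to 102). MIR181A2HG (log2 fold change 2.79), MIR17HG (0.84), MIR924HG (0.62) and MIRLET7BHG (0.61) were also higher. The let-7 seed hosts thus included 3 that were higher in SW620, 1 that was lower and MIRLET7A1HG, which was not called (-0.25, edgeR adjusted p = 0.168).

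**Figure D5:**
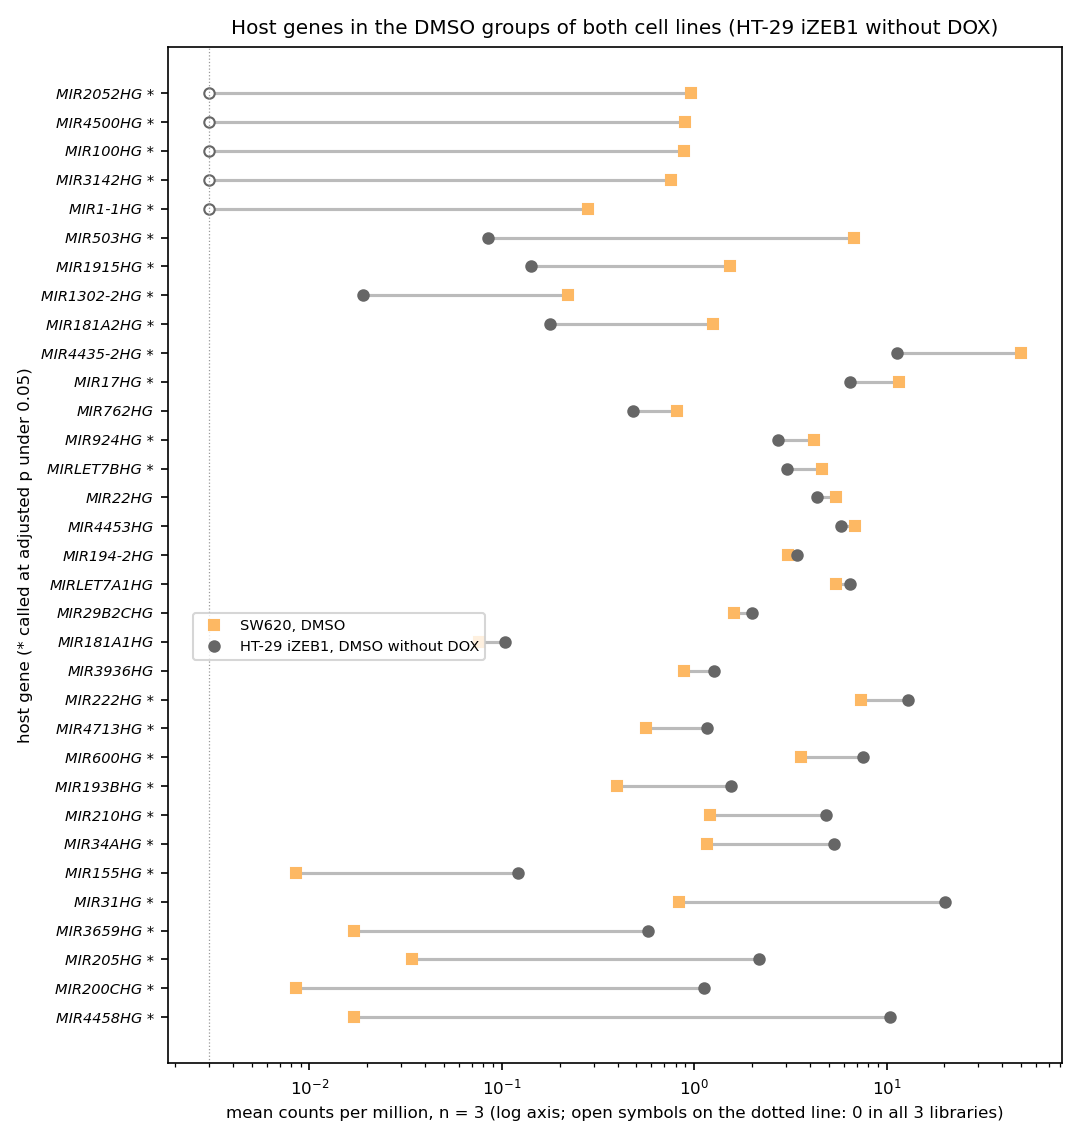
Mean CPM (horizontal log axis) of the described host genes in SW620 with DMSO (squares) and HT-29 with DMSO (circles), with 1 row per gene, open symbols for groups at 0 and asterisks for calls. MIR4458HG and MIR200CHG lie far to the HT-29 side and MIR503HG far to the SW620 side, and for the hosts at 0 in HT-29 the width of the gap cannot be read from the axis.

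Genes that process microRNAs or act with them were measured beside their hosts. With DOX, 7 of 26 rose and 8 fell, where 40.4% of all genes were called (median log2 fold change -0.05, against 0.00 over all genes). Among these AGO4, an Argonaute, rose by 0.79 and ZSWIM8, which serves in microRNA decay, by 0.66. XPO5, which exports hairpin precursors, and DGCR8, the partner of Drosha, each fell by 0.47. Adding RepSox to DOX raised 12 and lowered 5 of the 26, where 52.2% of all genes were called (median 0.15, against -0.01), with XPO5 at 0.80, AGO4 at -0.98 and ZSWIM8 at -1.09. RepSox without DOX raised 7 and lowered 4, where 25.3% of all genes were called. None was called for DOX over no DOX in RepSox (0.477% of all genes), and 3 rose and 2 fell with RepSox in SW620 (19.5% of all genes). Between the lines, where 76.6% of all genes were called, 11 were higher and 9 lower in SW620, with AGO2, the slicing Argonaute, at -2.32.

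Protein-coding genes that carry microRNAs in their introns gave 4 higher and 7 lower of 25 with DOX, 8 and 7 with RepSox added to DOX, and 5 and 2 with RepSox alone. The share of all genes called in these comparisons was 40.4%, 52.2% and 25.3%. MCM7, the replication helicase gene that hosts miR-25, miR-93 and miR-106b, changed by -0.74 with DOX and 0.88 with RepSox added. MEST, host of miR-335, changed by -0.66 and 1.00. In SW620, RepSox raised 6 and lowered 2 of 25, and 8 were higher and 13 lower of 26 in SW620 over HT-29, where 19.5% and 76.6% of all genes were called. Of other long non-coding hosts, PVT1 changed by -0.43 with DOX and 0.81 with RepSox added. The list held 1 higher and 2 lower of 6 with DOX, 2 and 1 with RepSox added, and 1 and 1 with RepSox alone. None of 7 was called with RepSox in SW620, and 4 were higher and 1 lower between the lines. The shares of all genes called are those just given.

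The list of regulators held 18 transcription factors, among them ZEB1, ZEB2, TP63, MYC, E2F1, HIF1A, RELA, NFKB1, SPI1, HNF4A, CDX2, KLF5, GRHL2, SMAD3, JUN and FOS. Of 16 tested in HT-29, 4 rose and 4 fell with DOX, which includes the induced ZEB1, 4 and 6 with RepSox added, and 3 and 5 with RepSox alone, against 40.4%, 52.2% and 25.3% of all genes called. GRHL2, an activator of epithelial genes, changed by -1.74 with DOX and 1.36 with RepSox added, while SMAD3, which carries TGF-β signals, changed by 0.33 and -1.15. DOX over no DOX in RepSox called 1 of the 16 higher, by at least 1.5-fold, and none lower (0.477% of all genes called). With RepSox in SW620, 2 rose and 5 fell of 14 (19.5% of all genes called), and 7 were higher and 7 lower of 16 between the lines (76.6%). GRHL2 had 8 summed counts in SW620 against 11981 in HT-29. All changes named in these lists passed edgeR's quasi-likelihood test.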

How the data were processed

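RNA was sequenced from 18 libraries in 6 groups of 3, and the authors deposited 1 table of raw counts per gene symbol. The submitters' processing notes name the build GRCh38.p13 and list, without roles, HISAT2 (2.2.0), featureCounts (2.0.0), DESeq2 (1.34.0) and FastQC (0.11.9). No source used here gives the annotation release or the strand setting.

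Counts were tested with edgeR 4.0.16 (R 4.3.3; TMM scaling, low counts removed by filterByExpr with a count minimum of 10, quasi-likelihood test, Benjamini-Hochberg adjustment, threshold 0.05). HT-29 (12 libraries), SW620 (6 libraries) and both lines (18 libraries) were fitted separately, with 16978, 17147 and 19107 genes, and the scripts were tested on simulated data. Printed log2 fold changes hold a small prior count. Library totals of 36.5 to 39.8 M counts set the precision, and intervals and floors cover counting error only.

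Members were the symbols of the form MIR...HG with at least 10 counts in at least 3 libraries. Full values went to called members past 1.5-fold, at most 12 per comparison, and MIR200CHG, MIR205HG and MIR17HG were given throughout. Other calls were given by level, and up to 4 called genes per list. Members and lists were chosen with earlier results of these data known. Alternatives were DESeq2 1.42.0, RLE size factors, library totals alone, no filter, other sets of libraries, a replicate block and leaving out each library. Positions are from GENCODE 29 (GRCh38), which held 29 of the 33 described members, and sequences from RefSeq (GRCh38.p14). No genome sequence was used here.

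Libraries within a group differed beyond counting noise (chi-square per degree of freedom 3.93 to 42.6). Of 45 pairs of libraries with the same replicate number, 17 had a correlation of deviations above 0.1 (range -0.58 to 0.48), so the numbers were not taken to pair the libraries.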

Additional observations from a re-analysis of the deposited data

Results flagged for a closer look

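Differences in the RepSox response between DOX states or between lines passed edgeR's quasi-likelihood test for 8 results, each a test of the difference itself. With DOX against without it, the log2 fold change for RepSox differed by 2.80 for MIR200CHG (SE 0.65, edgeR adjusted p = 0.00369), by 1.70 for MIR205HG (SE 0.31, edgeR adjusted p = 0.000447), and by 1.24 for MIR3936HG (SE 0.35, edgeR adjusted p = 0.0156). It differed by 1.17 for MIR17HG (SE 0.22, edgeR adjusted p = 0.000791), by 0.45 for MIR600HG (SE 0.14, edgeR adjusted p = 0.0293) and by -0.91 for MIR22HG (SE 0.29, edgeR adjusted p = 0.0313). In SW620 against HT-29 without DOX it differed by 0.98 for MIR31HG (SE 0.28, edgeR adjusted p = 0.0258) and by 0.96 for MIR22HG (SE 0.26, edgeR adjusted p = 0.0145). The calls for MIR600HG, MIR22HG and MIR31HG were each lost when certain single libraries were left out. SLC22A5, STRBP and WDR81, which overlap MIR3936HG, MIR600HG and MIR22HG by span, had the difference between DOX states called in the direction of the host.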

How the results depend on the processing

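For all genes, DOX over no DOX in RepSox gave 81 calls, against 162 with all 18 libraries in 1 fit, 264 with DESeq2 and 584 with no filter, and 27 to 1670 when 1 library was left out. RepSox in SW620 gave 3338 calls, against 2019 with all 18 libraries. The difference in RepSox response between lines gave 1982, against 3016 with only the libraries compared. Of the members, DOX in RepSox called 0, against 1 with DESeq2, no filter or the replicate block, and 0 to 1 without 1 library. RepSox in SW620 called 3, against 1 with all 18 libraries and 5 with no filter, and the response difference called 2, against 4 with only the libraries compared and 0 to 2 without 1 library. The replicate block changed the members' count by over 1.5 times only for DOX in RepSox, and by at most 1 in the other 7 comparisons. It added calls for MIR210HG there (-0.80), MIR3142HG with RepSox in SW620 (0.80), and MIR222HG in the interaction (0.50) and the response difference (0.50).

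Uncalled values of 2 members changed sign when 1 library was left out. MIR200CHG ran from -0.46 to 0.0655 for RepSox without DOX (sign changed without DMSO replicate 2) and from -1.54 to 3.37 for the response difference (without SW620 RepSox replicate 2). MIR205HG ran from -0.11 to 0.112 for DOX in RepSox (without RepSox replicate 1 or DOX plus RepSox replicate 3) and from -1.75 to 2.62 for the response difference (without SW620 DMSO replicate 2). Under settings that kept every library, 418 values of named members kept their direction and side of the threshold, 14 lost a call and 1 gained one. When 1 library was left out, 439 kept both and 60 lost a call. The cause was not tested. A stricter rule for members left 30 of 33, without MIR1302-2HG, MIR181A1HG and MIR155HG. With 3 libraries a group and under 20 counts a library in several members, small differences were not detectable at this depth.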

Other observations

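Rows for the microRNA genes themselves held few counts. The 21 rows that lie wholly in a host exon had 0 counts in all 18 libraries, and 12 of the 25 rows in host introns had counts, 260 in all. MIR221, in an intron of MIR222HG, held 153 of them, and MIR210, in MIR210HG, held 39. These reads come from long-RNA libraries and do not measure mature microRNAs.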
